A study of Physcomitrium patens with 8 samples.

Results

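In the moss Physcomitrium patens, 163 of the 26610 genes deposited passed a threshold for mannitol but not for abscisic acid (ABA) in wild type. These genes are described here across all 8 libraries. They were chosen on the log2(normalized reads + 10) scale among the 19821 genes whose mean over the 8 libraries was at least 20. A member had to be at least 2 log2 units (4-fold on that scale) higher in wild-type mannitol than in the wild-type control, with wild-type ABA less than 1 log2 unit (2-fold) from the same control. The knockout libraries and wild-type dehydration entered the choice only through the filter on the mean. Of 216 genes that met both thresholds the filter left out 53, of which 15 were at least 2-fold higher with mannitol in the knockout. It also let in 12 members by their knockout libraries alone, their wild-type mean being under 20, and all 12 were at least 2-fold higher with mannitol in the knockout. The main shares are therefore also given with the filter on the 4 wild-type libraries, an alternative chosen after seeing the data, which gave 160 members of 19495 genes. The tissue was chloronemata of the Gransden strain, the green filaments of a moss culture, taken 6 days after subculture. There was 1 library for each pairing of 2 genotypes, wild type (WT) and the knockout line PpanrKO (KO), with 4 conditions, and each library held RNA of 3 biological replicates pooled before it was made. The conditions were untreated control, 1 h of ABA at 1e-05 M, 1 h of mannitol at 10% w/v, and slow dehydration in a desiccator above saturated sodium chloride, ended at a loss of 70% of the starting fresh weight. Mannitol and ABA reached the tissue on soaked paper after the cellophane was moved, whereas the labels describe no mock transfer of the control and do not say how many independent lines the knockout stands for.

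ABA is the plant hormone of water shortage, and mannitol is a sugar alcohol that draws water out of cells by osmosis without acting as a hormone. In land plants hyperosmotic stress feeds into the same SnRK2 protein kinases that carry the ABA signal, but plants also have osmotic responses that need no ABA, so a gene can respond to osmotic stress with or without the hormone. The gene removed in the knockout, ABA NON-RESPONSIVE (ANR), encodes a Raf-like protein kinase that acts in ABA signalling of mosses and other early-diverging land plants. The question for these genes was how far their mannitol response remained when that regulator was missing.

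With 1 library per group no difference between 2 libraries has a replicate check, and none was tested. Differences are therefore given as values, with exact 95% intervals of the ratio of reads in brackets. The intervals cover counting error only and leave out the spread between cultures. They treat each read as independent, which amplified reads are not, so they can be too narrow. Reads recovered from the deposited values and summed over genes ran from 22516957 to 38767634 per library. The deposited IDs carry no gene names, so neither the targeted gene nor markers of the labelled tissue could be looked up by name and no function is given to any member. In bulk tissue a change in the number of cells of a type and a change in RNA per cell cannot be told apart. The scaling of the libraries matters here, because under the deposited normalization the median of all 19821 genes was itself 0.47 log2 units higher with mannitol in WT. With median-of-ratios scaling that median moved by -0.47, and the medians for KO mannitol, KO ABA, KO dehydration, WT ABA and WT dehydration moved by -0.13, -0.23, 0.26, -0.19 and 0.20.

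In WT the members made up 0.822% of the genes kept. Their median normalized level over genes came to 40.5 (control), 46.8 (ABA), 232 (mannitol) and 34.5 (dehydration), against 312, 367, 449.7 and 274 for all genes kept, so most members were transcripts of low abundance outside mannitol. Mannitol was the highest WT library for 162 of the 163. Their WT mannitol difference had a median of 2.33 log2 units and a highest value of 4.29. These values chose the members and support nothing further. For scale, 4.44% of all genes kept were at least 4-fold higher with mannitol in WT, and 16.7% and 11% were at least 2-fold higher and lower with ABA.

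The largest WT mannitol differences were in genes with at most 1 read in any other WT library. Phpat.010G007400 (build V3.0, chromosome 10, 2007378 to 2010067, plus strand) was counted 244 times in WT mannitol but 0, 0 and 1 times in WT control, ABA and dehydration, at least 64.1-fold above the control with 3 reads as the floor for an empty library. Its KO libraries held 0 (control), 20 (ABA), 31 (mannitol) and 8 reads (dehydration). Phpat.011G067500 (chromosome 11, 12172660 to 12173539, plus strand) gave 243 reads there and 0 in each of the other 7 libraries, KO mannitol included. The WT mannitol library was thus the only one of the 8 with reads of that gene. In all, 11 members had 0 reads in both WT control and WT ABA, and 31 had under 10 reads in the WT control.

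Values close to the thresholds show how sharp the limits are. Just inside the mannitol limit were Phpat.019G068500 (chromosome 19, 13339576 to 13344210), with a difference of 2.01, and Phpat.007G062100 (chromosome 7, 10470403 to 10471564), with 2.02, while Phpat.021G055600 and Phpat.003G104700 were left out at 1.998 each. Just inside the ABA limit were Phpat.013G042400 and Phpat.017G080700, with ABA differences of 0.99 and 0.98, and Phpat.002G058900 and Phpat.003G031400 were left out at 1.01 and 1.03. As a ratio of reads, WT ABA was 4.02-fold (1.32 to 14.6) the control in Phpat.013G042400 and 2.44-fold (1.37 to 4.40) in Phpat.017G080700. A member with few reads can thus be higher with ABA in WT and still meet the rule.

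**Figure D1:**
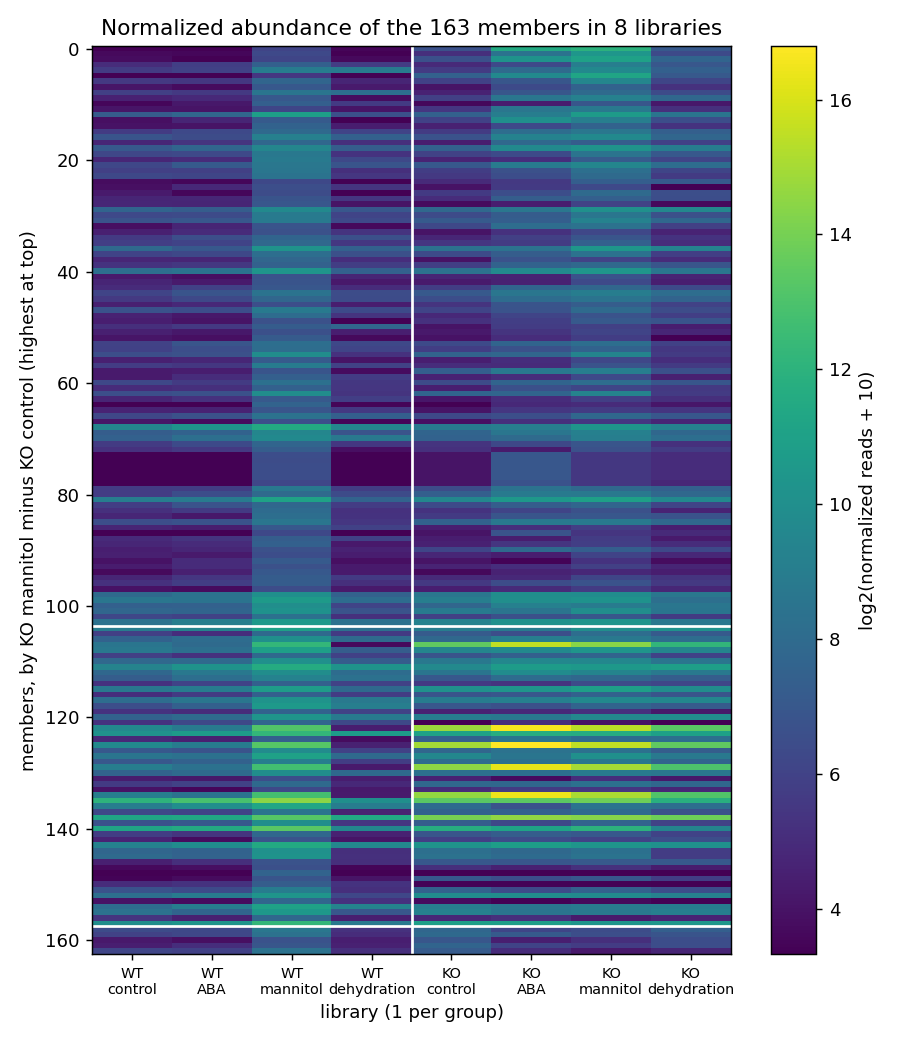
Heat map of the 163 members (rows, ordered by KO mannitol minus KO control) in the 8 libraries (columns), coloured by log2(normalized reads + 10); white lines separate WT from KO libraries, and members at least 2-fold higher (104), within 2-fold (54) and at least 2-fold lower (5) with mannitol in KO. WT mannitol is the brightest WT column for 162 members, and KO mannitol the brightest KO column for 112.

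Most members were also higher with mannitol in the knockout. Of the 163, 104 (63.8%) were at least 2-fold higher in KO mannitol than in the KO control, where 9.1% of all genes kept were, and 43 (26.4%) were at least 4-fold higher, against 1.47%. Another 54 lay within 2-fold and 5 were at least 2-fold lower, the latter against 9.56% of all genes. The members' median KO mannitol difference was 1.41 log2 units, with a range from -2.94 to 5.34, and the median of all genes was 0.13. The counting interval of the ratio excluded 1 for all 104, but the 104 were picked on reads of the same libraries, so this adds no support. With the filter on the WT libraries alone, so that no KO library entered the choice, 95 of 160 (59.4%) were at least 2-fold higher, against 8.49%, with a median of 1.27. Ranked within KO, mannitol was the highest of the 4 libraries for 112 members (68.7%), against 30.4% of all genes kept. ABA was highest for 34 (20.9%, against 39.3%), the control for 13 (7.98%, against 23.4%), counting 1 gene at 0 in all 4, and dehydration for 4 (2.45%, against 6.92%).

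The share higher in KO was set against that of other genes with a WT mannitol difference of at least 2 log2 units. Of these, 699 were also at least 2-fold higher with ABA in WT, and 123 of the 699 (17.6%) passed 2-fold with mannitol in KO, with a median difference of 0.04. Another 19 were at least 2-fold lower with ABA in WT, and 12 of the 19 (63.2%) did, with a median of 1.39. These 3 lists do not share genes. The difference between them was not tested, because genes of 1 library are not replicates. With median-of-ratios scaling and the rule applied again, the shares were 50 of 70 (71.4%), 68 of 484 (14.0%) and 9 of 12 (75%).

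**Figure D2:**
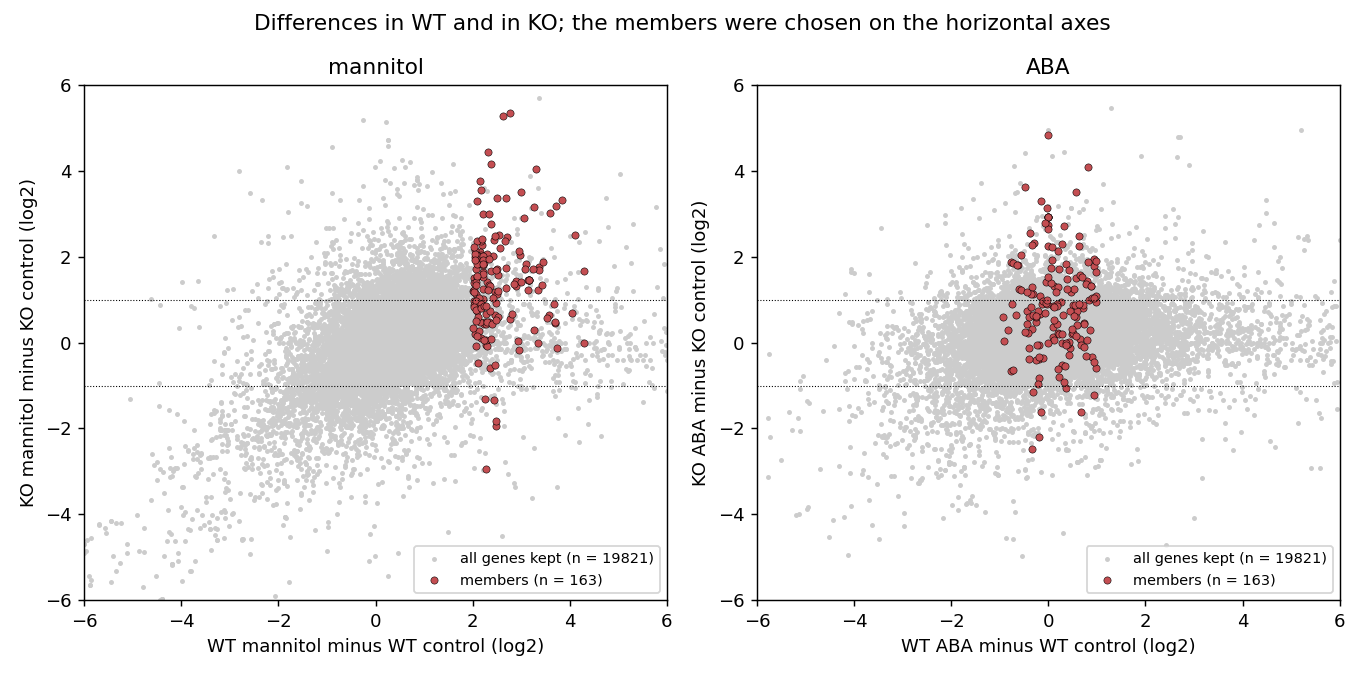
Each point is a gene, with its log2 difference from the control in WT (horizontal) and in KO (vertical), for mannitol (left) and ABA (right); grey marks the 19821 genes kept, red the 163 members, which were chosen on the horizontal axes, and dotted lines 2-fold in KO. The axes stop at 6 log2 units, which leaves out 89 and 252 grey points but no member. Most members lie above the upper dotted line for mannitol, and 66 of 163 do for ABA.

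At the top of the KO mannitol differences were 2 genes barely detected in WT outside mannitol. Both are among the 12 members that passed the filter only by their KO libraries, so high KO values helped to choose them. Phpat.017G064400 (chromosome 17, 11841714 to 11843147, plus strand) had normalized values of 0, 0, 57.7 and 1.23 in WT control, ABA, mannitol and dehydration, and of 90.4, 2854, 4059 and 127 in the same order in KO. With mannitol it was 44.9-fold higher than the KO control (36.1 to 56.5), and it was present in every KO library. Phpat.007G079100 (chromosome 7, 14569888 to 14572763, minus strand) was counted 3, 1, 92 and 0 times in the WT libraries and had normalized values of 25.4, 338, 1358 and 70.2 in KO, 53.6-fold higher with mannitol (35.6 to 84.7). KO mannitol was the highest of the 8 libraries for both genes.

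The 5 members that were lower with mannitol in KO fell into the class by the KO control and KO mannitol values themselves, which are given here as a description. Phpat.027G025200 (chromosome 27, 3376244 to 3377337, minus strand) had normalized values in WT of 60.8, 51.7, 333 and 24.6 (control, ABA, mannitol, dehydration), while those in KO were 137, 21.7, 9.16 and 15.9. Mannitol thus had its highest WT and its lowest KO value, 14.9-fold below the KO control (8.42 to 28.8). In Phpat.006G017100 (chromosome 6, 2910599 to 2911744, plus strand) the values were 11.6, 24.2, 110.1 and 13.5 in WT and 193, 55.7, 43.0 and 81.4 in KO, 4.49-fold lower with mannitol (3.34 to 6.11). All 5 were at least 2-fold higher in the KO control than in the WT control, which a class picked for a low KO mannitol to KO control ratio favours. So were 24 of the 54 members within 2-fold (44.4%) and 17 of the 104 higher in KO (16.3%), against 9.14% of all genes kept. The KO control helped to make each class, so these shares are a description. The 24 include a run of 5 genes on chromosome 26 whose sharing of reads was not tested.

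Members that kept the difference in KO and those that did not also differed in abundance in WT. The 104 members higher in KO had a median level of 176 in WT mannitol (quartiles 102 and 383), and the 54 within 2-fold had 1012 (quartiles 209.9 and 2080.1). After WT dehydration, 8 of the 104 (7.69%) and 20 of the 54 (37.0%) were at least 2-fold below the WT control, against 20.6% of all genes kept. A gene with a WT control under 10 cannot be called 2-fold lower on the log2(value + 10) scale, and among members at or above 10 the counts were 8 of 75 (10.7%) and 20 of 49 (40.8%), against 21% of all such genes. These classes differ in abundance, and its part in the contrast was not tested. The 20 include a run of 5 genes on chromosome 26 and the pair Phpat.026G021900 and Phpat.026G022300. The 8 include the pair Phpat.003G047400 and Phpat.003G047900. Counts ran in parallel within each of these sets, and whether their genes share reads was not tested.

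**Figure D3:**
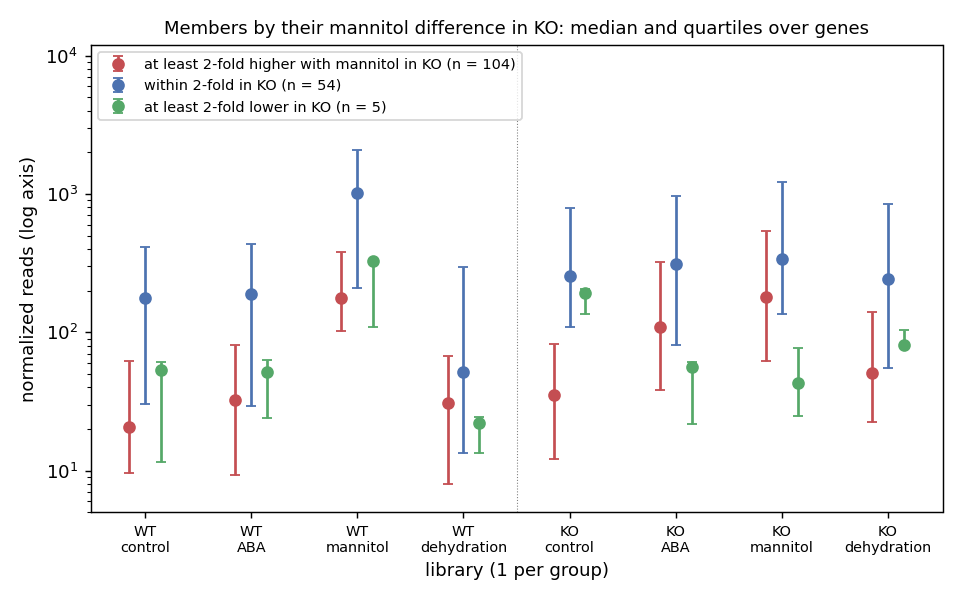
Median normalized reads (points, log axis) and quartiles over genes (bars) in each of the 8 libraries, for members at least 2-fold higher (n = 104), within 2-fold (n = 54) and at least 2-fold lower (n = 5) with mannitol in KO; the KO control and KO mannitol libraries made these classes. The middle class is the most abundant in WT mannitol, with a median of 1012 against 176 for the first class.

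ABA, to which the members did not respond in WT by the rule, gave another picture in KO. There 66 members (40.5%) were at least 2-fold higher with ABA than in the control, against 8.29% of all genes kept, and 25 (15.3%) at least 4-fold, against 0.863%. Only 7 (4.29%) were at least 2-fold lower, against 4.97%. The median KO ABA difference was 0.84 log2 units for the members and 0.23 for all genes. In WT it was 0.12 and 0.18, but there the rule had limited the members' values, so the genotypes are not contrasted. For the 699 genes higher with both mannitol and ABA in WT that count was 111 (15.9%). The KO ABA, KO mannitol and KO dehydration differences all use the same KO control library, so they are given side by side and not as independent evidence. With the filter on the WT libraries alone, 56 of 160 (35%) were at least 2-fold higher with ABA in KO, against 7.85%.

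The ABA libraries of the 2 genotypes were also set against each other, as a description, since WT ABA is 1 of the libraries of the rule and was held near a low WT control. KO ABA was at least 2-fold above WT ABA in 86 members (52.8%), against 26.2% of all genes kept, and at least 2-fold below it in 6, against 12.7%. With median-of-ratios scaling 68 members were at least 2-fold above, against 16.2% of all genes. Set against each other in KO, mannitol was at least 2-fold above ABA in 50 members (30.7%), where 2.86% of all genes were, and at least 2-fold below in 13 (7.98%), against 7.2%.

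Phpat.017G064400, which passed the filter only by its KO libraries, also had the largest KO ABA difference, 31.6-fold (25.3 to 39.8), with 0 reads in WT ABA. The next was Phpat.012G060400 (chromosome 12, 11007786 to 11009969, minus strand). Its normalized values were 4.82, 16.2, 131 and 0 in WT control, ABA, mannitol and dehydration, and 51.8, 1042, 542 and 82.4 in KO. ABA was its highest KO library, 20.1-fold above the KO control (15.0 to 27.5), while in WT mannitol was the highest. At the other end, Phpat.026G033700 (chromosome 26, 6035083 to 6036552, plus strand) had values of 114, 12.3, 24.7 and 79.5 in KO control, ABA, mannitol and dehydration, 9.25-fold lower with ABA (5.18 to 18.0), and 8.68, 4.85, 93.4 and 12.3 in WT. Phpat.027G025200 was 6.29-fold lower with ABA in KO (4.01 to 10.3).

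**Figure D4:**
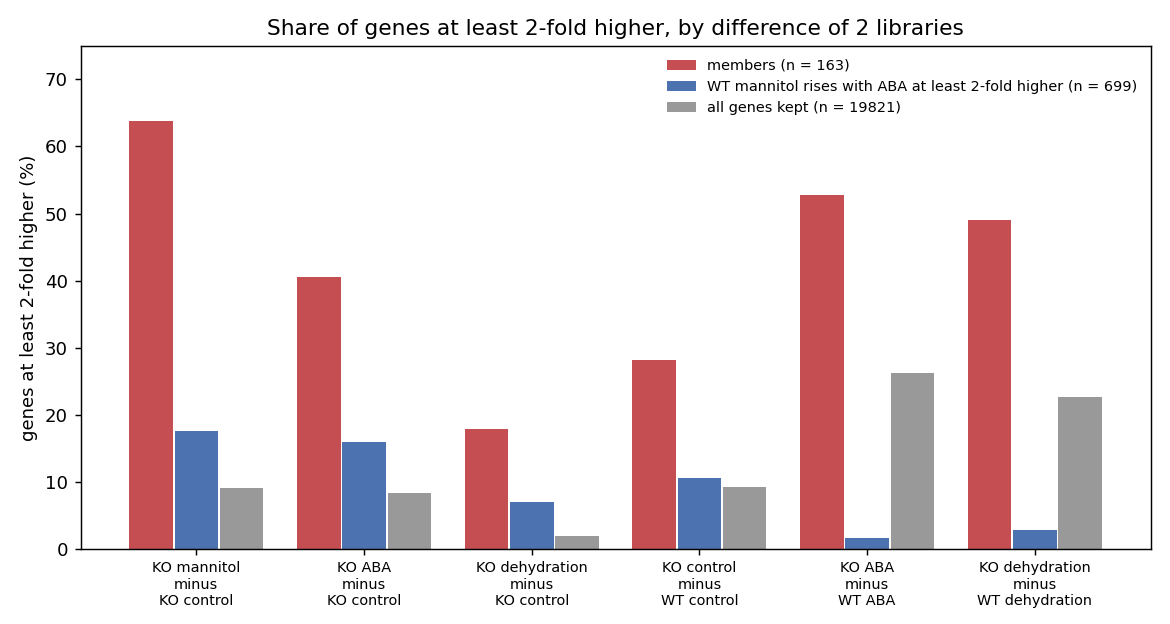
Share of genes at least 2-fold higher (vertical axis, %) in 6 differences between 2 libraries, for the 163 members (red), the 699 genes higher with both mannitol and ABA in WT (blue) and all 19821 genes kept (grey). The members' share is 63.8% for KO mannitol, 40.5% for KO ABA and 17.8% for KO dehydration, and in the KO minus WT comparisons the WT control and WT ABA libraries had entered the choice of members.

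After drying in WT, 117 of the 163 members lay within 2-fold of the control, as did 13696 of the 19821 genes kept. At least 2-fold higher after WT dehydration were 16 members (9.82%), against 10.3% of all genes kept, and 30 (18.4%) were at least 2-fold lower, against 20.6%, with a median of 0.00 for the members and -0.20 for all genes. Both shares lay near the background under the deposited scaling. The share higher moved to 18.6% against 8.62% with a pseudocount of 50, to 20% against 13.4% with median-of-ratios scaling and to 18.75% against 10.3% with a mannitol threshold of 3. This comparison shares the WT control with the rule, which favoured genes that were low there. For the 699 genes higher with mannitol and ABA in WT the count of 2-fold higher genes was 627 (89.7%).

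The members highest after WT drying were Phpat.009G078600 and Phpat.021G008500. Phpat.009G078600 (chromosome 9, 13680030 to 13682605, plus strand) had values of 40.5, 51.7, 487 and 441 in WT control, ABA, mannitol and dehydration and 40.8, 239.9, 828 and 163 in KO. Mannitol and drying stood out in WT, 12.0-fold (8.79 to 16.8) and 10.9-fold (7.88 to 15.4) above the control, and mannitol in KO, by 20.3-fold (14.6 to 29.0). Phpat.021G008500 (chromosome 21, 1437237 to 1439428, plus strand) was the 1 member with a higher value after drying (209) than with mannitol (139.8) in WT. In KO its values were 6.62, 43.5, 49.3 and 11.2, with drying within the counting interval of the KO control (1.70-fold, 0.59 to 5.51), and KO dehydration was 18.6-fold below WT dehydration (10.4 to 36.8).

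In KO, 29 members (17.8%) were at least 2-fold higher after dehydration, against 1.97% of all genes kept, and 17 (10.4%) at least 2-fold lower, against 10.8%. The share higher ran from 5.71% against 0.964% with a pseudocount of 50, and 7.66% against 1.97% with a mannitol threshold of 1.5, to 38.6% against 3.64% with median-of-ratios scaling. The medians were 0.18 for the members and -0.25 for all genes. The highest was Phpat.011G027700 (chromosome 11, 4678108 to 4681268, minus strand), whose KO reads were 19 (control), 40 (ABA), 215 (mannitol) and 141 (dehydration), 6.30-fold higher after drying (3.89 to 10.8). Its WT reads in that order were 4, 1, 86 and 0, and it passed the filter only by its KO libraries. Phpat.007G065000 (chromosome 7, 10782562 to 10789621, plus strand) followed at 5.45-fold (3.34 to 9.36), with KO values of 20.9, 69.9, 541 and 114 and WT values of 23.1, 46.8, 163 and 43.1. Mannitol was the highest library of each genotype in both genes.

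The lowest after KO drying were Phpat.026G022300 (chromosome 26, 3026486 to 3028384, minus strand) and Phpat.026G021900 (chromosome 26, 2945502 to 2946791, minus strand). Phpat.026G022300 had values of 247, 186, 1203 and 27.1 in WT control, ABA, mannitol and dehydration, and 331, 249, 344 and 43.0 in KO. It was 7.68-fold lower after drying in KO (5.62 to 10.7) and 9.12-fold lower in WT (5.90 to 14.8), while KO mannitol was level with the KO control (1.04-fold, 0.898 to 1.20). Phpat.026G021900 ran in parallel, 6.94-fold lower after KO drying (5.04 to 9.74), and their ratio of reads varied over the 8 libraries by 0.22 log2 units. Whether the pair shares reads, as near-identical copies would, was not tested.

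Compared directly between genotypes, the members tended to lie higher in KO outside mannitol, as all genes did to a smaller extent. In control, ABA and dehydration the median KO minus WT differences were 0.48, 1.06 and 0.96 log2 units for members. Those of all genes were 0.32, 0.38 and 0.28, and median-of-ratios scaling moved them by -0.34, -0.38 and -0.28. In the control 46 (28.2%) were at least 2-fold higher in KO than in WT, against 9.14% of all genes kept, and 5 at least 2-fold lower, against 3.22%. The rule favours low WT control values, so that share is a description. With median-of-ratios scaling it was 33 members, against 4.09% of all genes. After dehydration, where both libraries entered only the filter on the mean, 80 members (49.1%) were at least 2-fold higher in KO, against 22.7%, and 15 lower, against 12%. With the filter on the WT libraries alone it was 68 of 160 (42.5%), against 21.5%. With mannitol the members had been picked as high in WT, and there KO exceeded WT by 2-fold or more in 19 (11.7%), against 7.43%, and lay as far below it in 53 (32.5%), against 10.1%. In 17 members (10.4%) the KO library exceeded the WT one by 2-fold or more in each of the 4 conditions, against 2.29% of all genes. These 17 include Phpat.017G064400, Phpat.007G079100, Phpat.007G075000, Phpat.011G027700 and Phpat.001G129600, all of which passed the filter only by their KO libraries.

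The 5 members with the largest KO to WT difference in the control are consecutive genes on chromosome 26, Phpat.026G025700 to Phpat.026G026100 (3672772 to 3843939), with log2 differences of 4.93 to 5.55. Phpat.026G025700 had normalized values of 528, 339, 6986 and 9.84 in WT control, ABA, mannitol and dehydration, and of 25203, 87659, 34422 and 9075 in KO. In WT mannitol lay 13.2-fold above the control (12.1 to 14.5) and drying 53.6-fold below it (27 to 125). In KO every library was above the highest WT one, ABA was the highest, and mannitol was 1.37-fold above the control (1.34 to 1.39), so this gene counts among the 54 members within 2-fold. Phpat.026G026100 (3841304 to 3843939, plus strand) had 505, 321, 6686 and 9.84 in WT and 23452, 81631, 32846 and 8396 in KO.

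Phpat.026G025800 and Phpat.026G025900, between them, were the most abundant members over the 8 libraries and had the largest KO to WT difference after dehydration. Phpat.026G025800 (3751006 to 3753278, minus strand) was counted 9 times in WT dehydration and 11236 times in KO dehydration, and Phpat.026G025900 (3772319 to 3775495, minus strand) 11 and 12632 times. After WT drying they were 69.2-fold (36.2 to 152) and 62.2-fold (34.6 to 125) below the control. The 5 genes took 0.137% of the reads summed over genes in WT mannitol and 1.18% in KO ABA, whereas the other 158 members took 0.473% and 0.229%. Over the 7 libraries with at least 50 reads their pairwise read ratios varied by at most 0.67 log2 units, and with WT dehydration (2 to 11 reads each) by 1.61, and whether they share reads was not tested.

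At the other extreme, some members had few or no reads in KO control or dehydration. Phpat.008G054200 (chromosome 8, 10138723 to 10142793, minus strand) had values of 29.9, 66.2, 208 and 66.4 in WT control, ABA, mannitol and dehydration, and 0, 24.6, 5.63 and 0 in KO. It was at least 9.04-fold lower in the KO control than in the WT control and at least 23.7-fold lower after drying. Phpat.005G086500 (chromosome 5, 16284186 to 16287049, plus strand) had WT counts of 23, 18, 192 and 24 reads but KO counts of 1, 1, 1 and 0. With Phpat.011G067500 and Phpat.015G042600 (chromosome 15, 6901548 to 6904816, minus strand; 265 reads in WT mannitol and 3 in KO mannitol), the latter chosen after its values were seen, it was 1 of 3 members with at most 10 reads in every KO library. The share of all genes kept with so few KO reads was not counted, so this number is a description only.

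Along the genome 37 members (22.7%) lay in 12 runs, in which each member follows the last within 5 gene positions, and 126 stood alone. The share in runs was not counted for other lists of genes, so 22.7% is a description only. All 27 chromosomes held at least 1 member. Chromosomes 7 and 26 had the largest shares of their kept genes among the members, 15 of 787 (1.91%) and 8 of 422 (1.90%), and chromosome 1, also with 15, had 1.15%. The chromosome 7 share includes Phpat.007G079100, Phpat.007G075000 and a run of 7 genes, all of which passed the filter only by their KO libraries. In that run 4 genes had equal counts. The chromosome 26 share includes the run of 5 and the pair described above, whose sharing of reads was not tested. The runs named next were chosen after their values were seen. The longest is on chromosome 7, where 7 consecutive genes, Phpat.007G042200 to Phpat.007G042800 (6148536 to 6412110), had 0 reads in WT control, WT ABA and WT dehydration. All 7 passed the filter only by their KO libraries, and none is a member with the filter on the WT libraries alone. Phpat.007G042200 had 105 reads in WT mannitol and 6, 122, 51 and 24 in KO control, ABA, mannitol and dehydration, so ABA was its highest KO library and mannitol its only WT one. It had the same counts in all 8 libraries as 3 others of the run, and the same reads may be counted at each.

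On chromosome 17, 6 of the 8 consecutive plus-strand genes from Phpat.017G080000 to Phpat.017G080700 (13914167 to 13964537) are members, and all 6 were higher with mannitol in KO, by 1.99 to 3.00 log2 units. In Phpat.017G080400 (13947769 to 13954135) the values were 127, 204, 705 and 145 in WT control, ABA, mannitol and dehydration and 169.8, 839, 1201 and 505 in KO. Mannitol was the highest library of both genotypes, 5.54-fold (4.61 to 6.70) and 7.07-fold (5.99 to 8.40) above the control. Within KO, ABA was 4.94-fold (4.16 to 5.90) and drying 2.98-fold (2.48 to 3.58) above the control. In WT the values were 1.6-fold (1.24 to 2.06) and 1.14-fold (0.882 to 1.47), and the rule had limited the former. On chromosome 21, 3 neighbours, Phpat.021G055300 to Phpat.021G055500 (9936343 to 9943549, plus strand), had KO mannitol differences of 1.92 to 1.95.

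**Figure D5:**
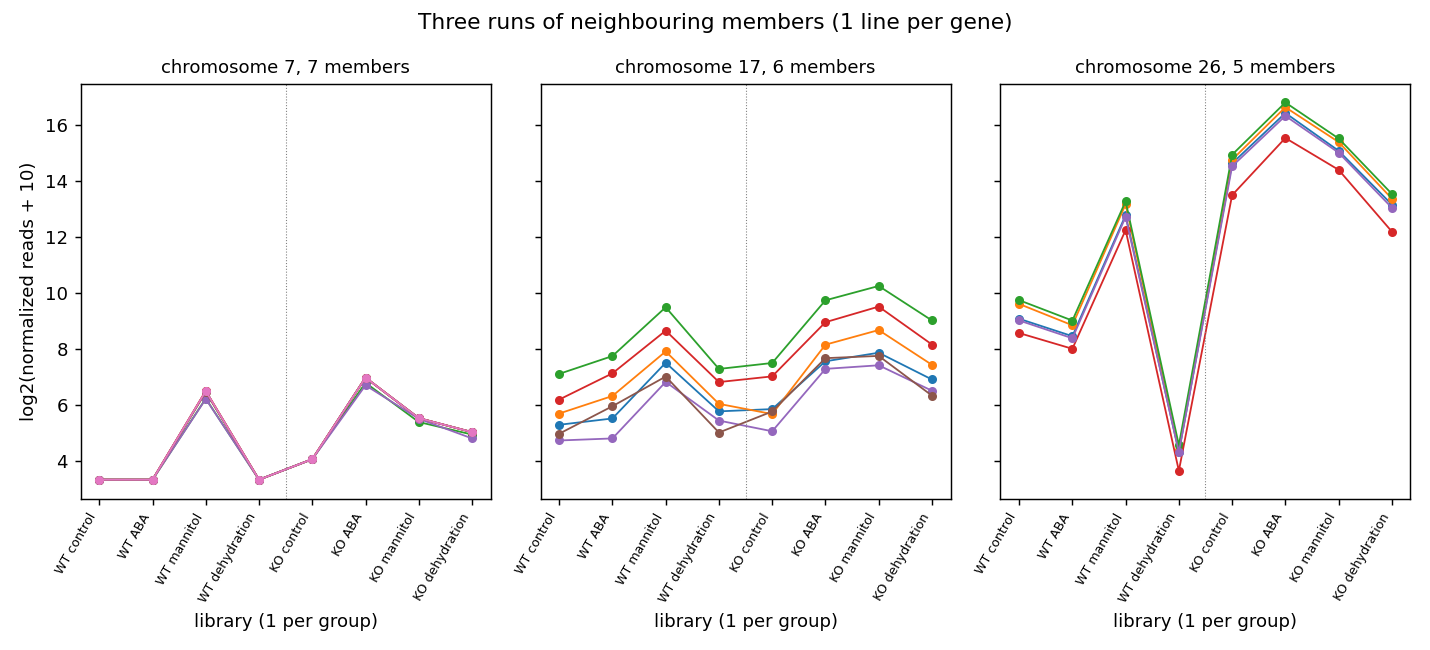
Log2(normalized reads + 10) in the 8 libraries (1 per group) for the members of 3 runs of neighbouring genes, 1 line per gene: 7 genes on chromosome 7, 6 on chromosome 17 and 5 on chromosome 26. In WT mannitol is the highest library of all 3 runs, while in KO it is ABA for chromosomes 7 and 26 and mannitol for chromosome 17. The chromosome 7 genes passed the filter only by their KO libraries.

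The nearest pair of members overlaps. Phpat.010G063300 (chromosome 10, 11118502 to 11119750, plus strand) and Phpat.010G063400 (11119065 to 11120768, minus strand) share 686 bp, and since the sources used here do not give whether counting used strand, their reads cannot be told apart. They had 176 and 329 reads in WT mannitol, 7 and 27 in the WT control, 64 and 130 in KO mannitol and 5 and 27 in the KO control. In all 13 members (7.98%) overlap a gene on the opposite strand, as do 5.33% of all genes kept.

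As gene models, the members spanned a median of 2678 bp (quartiles 1612 and 3696.5), against 3089 bp (2029 and 4517) for all genes kept. An older V1.6 model is recorded for 111 of them (68.1%), against 77.9% of all genes kept and 82.0% of the 699 genes higher with both mannitol and ABA.

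The same rule was finally read in KO alone, as a mannitol difference of at least 2 log2 units with ABA less than 1 from the KO control. It gave 81 genes, 0.409% of those kept, and 17 of them were members, which is 10.4% of the members and 21% of the 81. Of the 81, 50 (61.7%) reached 2-fold higher with mannitol in WT, against 21.2% of all genes kept, with a median of 1.52. The WT and KO choices use no library in common except through the filter on the mean.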

How the data were processed

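RNA-seq was deposited as 1 normalized abundance signal per gene and library. Per the submitters' processing notes the tools included FastQC, Trimmomatic, TopHat2, SAMtools and bedtools; versions, the normalization and the use of strand are not given in the sources used here. Every deposited signal value was a whole multiple of 1 step per library, and 100% of the values gave whole reads within 0.01 read, so reads per gene were recovered by division. Gene positions are those of the deposited V3.0 gene models (Phytozome v10). The RefSeq gene table at hand matched 0 of the IDs.

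The members and lists were chosen with earlier results of these data known. Genes named are the 2 highest or 2 lowest members of each difference, by abundance, by distance to a threshold or to each other, unless marked. Differences are log2(value + 10), which understates changes of low genes. Folds are ratios of normalized reads, with Clopper-Pearson intervals conditional on the sum and a floor of 3 reads for an empty library. A count test was not run: each difference rests on 1 library per group, and a fit of treatment and genotype together would use the libraries that chose the members. The scripts were tested on simulated data. Alternatives changed the pseudocount, filter, scaling, thresholds and the counting of copies. Python 3.11.15, numpy 2.4.6, pandas 2.3.3 and scipy 1.17.1 were used.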

Additional observations from a re-analysis of the deposited data

Results flagged for a closer look

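In 5 members mannitol moved the genotypes in opposite directions by at least 2-fold each. They were higher in WT, as the choice of members required, and lower in KO, with KO mannitol differences of -2.94 in Phpat.027G025200, -1.94 in Phpat.006G017100, -1.83 in Phpat.026G033700, -1.33 in Phpat.006G017200 and -1.31 in Phpat.020G010700 (log2). Phpat.006G017100 and Phpat.006G017200 are neighbours on chromosome 6. After dehydration the same happened in Phpat.001G019900, which had 12 reads in the WT control and 0 in WT dehydration but was 1.58 log2 units higher in KO, with 25 and 109 reads. With 1 library per group, none of these differences between genotypes was tested.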

How the results depend on the processing

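No paired analysis was possible because each group is 1 library, and for the same reason no replicate could be left out. Against 163 members, the rule gave 70 with a pseudocount of 50, 92 with a mean of at least 100, 70 with median-of-ratios scaling, 522 and 32 with WT mannitol thresholds of 1.5 and 3, and 103 with an ABA threshold of 0.5. The share of members at least 2-fold higher with mannitol in KO, 63.8%, became 44.3% with a pseudocount of 50, 55.1% without the filter, 55.4% with a mean of at least 100, 71.4% with median-of-ratios scaling and 38.5% with a WT mannitol threshold of 1.5. For ABA in KO, 40.5% became 27.1%, 32.4%, 50% and 24.9% with a pseudocount of 50, no filter, median-of-ratios scaling and a threshold of 1.5, and 59.4% with a threshold of 3. For dehydration in KO, 17.8% became 25.1% and 5.71% with pseudocounts of 1 and 50, 38.6% with median-of-ratios scaling (25.8% with the members held fixed) and 7.66% with a threshold of 1.5. After WT dehydration, 9.82% higher became 18.6% with a pseudocount of 50, 20% with median-of-ratios scaling and 18.75% with a threshold of 3, and 18.4% lower became 26.2% with a pseudocount of 1 and 28.3% with a mean of at least 100. In each of these settings the members' share higher in KO lay above that of all genes. The cause of these moves was not tested. Counting each run once, leaving out members under 10 reads in the WT control and filtering on the WT libraries alone were chosen after seeing the data. In that order they gave 63.0%, 59.8% and 59.4% for mannitol in KO and 35.5%, 34.8% and 35% for ABA in KO. For dehydration in KO they gave 17.4%, 18.9% and 16.25%. After WT dehydration they gave 10.1%, 9.85% and 10.6% higher and 17.4%, 22.7% and 18.75% lower. Depth limits the 31 members under 10 reads in the WT control most, and the spread between cultures was not measured.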

Other observations

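Some genes beside or between members of the runs moved with them without meeting the rule, and those named were chosen after their values were seen. Others did not, such as Phpat.017G080800, with mannitol differences of 0.31 in WT and 0.35 in KO (log2). Phpat.021G055200, beside the chromosome 21 run, had 0.32 and 0.75. On chromosome 17, Phpat.017G080100 and Phpat.017G080300 lie between members and had WT mannitol differences of 1.51 and 1.62, WT ABA differences of -0.14 and 0.18, and KO mannitol differences of 2.11 and 2.19 (log2). With them, all 8 genes of that interval were at least 2-fold higher with mannitol in both genotypes. On chromosome 21, Phpat.021G055600 follows the run of 3 members and had differences of 2.00 with mannitol in WT, 2.33 with mannitol in KO and 2.12 with ABA in KO.

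A pair of members 114 kb apart on chromosome 3, Phpat.003G047400 and Phpat.003G047900, had read ratios that varied by 0.14 log2 units over the 8 libraries, and by 0.07 over the 6 with at least 50 reads. Phpat.003G047400 was 11.4-fold higher with mannitol in WT (9.15 to 14.3) and 3.49-fold in KO (2.96 to 4.14), and with ABA it lay within counting error of the control in both genotypes (1.08-fold, 0.763 to 1.53, and 1.09-fold, 0.891 to 1.34). Phpat.001G129600, another member chosen after its values were seen, had 45 reads in WT mannitol and 0 in the other 3 WT libraries, but 154, 891, 3445 and 135 in KO control, ABA, mannitol and dehydration. It passed the filter only by its KO libraries.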
